A study of Drosophila sechellia and Drosophila simulans with 8 samples.

Results

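Sarcomere genes were measured in whole bodies of adult females of Drosophila sechellia and Drosophila simulans, and 7 of the 10 genes chosen could be read. The choice was by name: Mhc, Mlc1, Mlc2, Act88F, Act79B, Tm1, Tm2, up, wupA and fln, each through the probe sets that the annotation ties to that gene alone. Of 11982 genes with such a probe set, 7 were members, with 1 probe set each. These were Mlc1, Mlc2, Act88F, Act79B, Tm2, up and fln, and all 7 passed the filter on dim probe sets. Mhc, Tm1 and wupA were not analysed here.

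The sarcomere is the contractile unit of striated muscle, in which thick filaments of myosin slide along thin filaments of actin. Tropomyosin and the troponins on the thin filament gate this sliding by calcium, and light chains stiffen and tune the myosin head. In an adult fly the thorax is filled by indirect flight muscles, which are fibrillar and express their own actin and accessory proteins, while legs, jump muscle and abdomen hold tubular muscles.

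The series crossed species with treatment: flies had either a choice or no choice, and the choice concerned octanoic acid mixed with hexanoic acid, volatiles of the fruit on which D. sechellia specialises. Each of the 4 groups formed by both species under both treatments had 2 arrays. All flies were reared at 25 °C on an agar, yeast and cornmeal medium. The labels give no strain, age or duration and do not describe the options offered. They only number the 2 arrays of a group and name no separate pools of flies, so the spread behind each p-value may be purely technical.

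Probe sets were designed for Drosophila melanogaster, so a sequence difference between the species can change a signal as a change in RNA does. This touches every comparison between species and none within a species. In bodies, fewer muscle cells and less RNA per cell cannot be told apart. Array 1 of sechellia choice stood apart. Its correlation with array 2 of its group was 0.720 over 13138 probe sets, where arrays of the same group otherwise correlated at 0.963 to 0.969. With arrays of other groups it correlated at 0.674 to 0.714, where such pairs otherwise correlated at 0.912 to 0.961. Bright probe sets read low on it: over the 947 probe sets whose signal on array 2 of that group lay between 2482 and 11697, the range of the members, the median signal on array 1 was 52.7% of that on array 2. The members lay at a median of 51.9%. Dim probe sets read high on it: Bacillus control probe sets had a median of 126, against 12.3 to 21.5 on the other arrays. The median signal of all probe sets but controls was 317, against 111 to 130. Differences are given with all 8 arrays and, as 7 arrays, without this one, where array 2 alone stands for sechellia choice and is assumed to vary like the other groups.

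**Figure D1:**
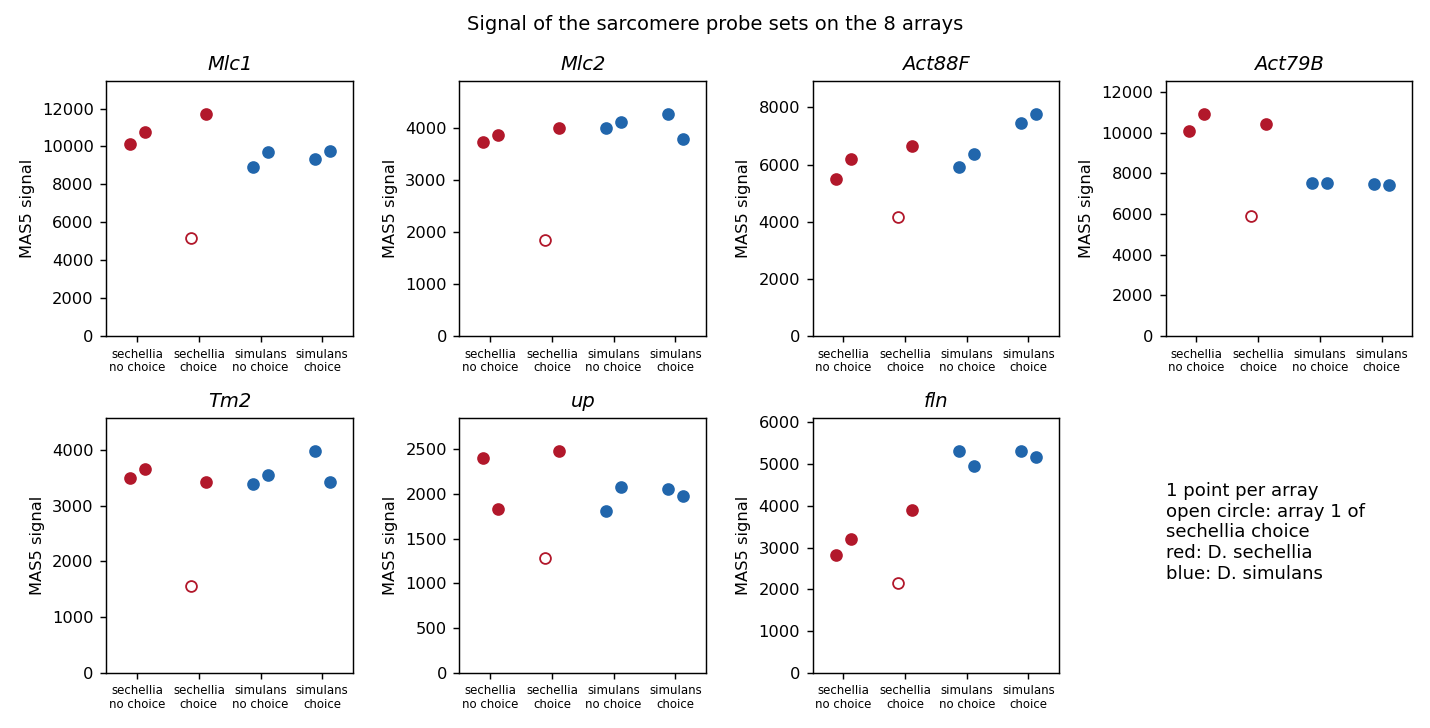
MAS5 signal (linear scale, vertical axis from 0) of the 7 sarcomere probe sets on each of the 8 arrays, by group, with 1 point per array and array 1 of sechellia choice as an open circle. On the other arrays fln is lower in sechellia, at 2826 to 3900 against 4963 to 5316, and Act79B is higher, at 10099 to 10898 against 7430 to 7527.

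Between the species, flightin RNA signal was lower in D. sechellia, while the signals of the tubular muscle actin Act79B and of the myosin light chain Mlc1 were higher once array 1 of sechellia choice was left out. The 4 other members showed no called difference. With 7 arrays and averaged over treatments, 2 of 7 members were higher in sechellia and 1 lower (limma, Benjamini-Hochberg adjusted p below 0.05 over all 13138 tested probe sets), where 16.9% of all tested probe sets were higher and 15.6% lower. With 8 arrays 1 of 7 was lower and none higher (0 of 7 higher at an unadjusted p below 0.05), where 5.46% of all were lower and 4.41% higher. In either direction, 3 of 7 members stood beside 32.5% of all with 7 arrays and 1 of 7 beside 9.87% with 8, so the share of members called was near that of all probe sets. The median log2 difference of the members was -0.03 with 7 arrays and -0.30 with 8, beside 0.07 and 0.14 over all tested probe sets. Scaling moved the split: quantile normalisation of 8 arrays gave 2 higher and 1 lower, beside 576 and 577 of all 13138. Median centring of 8 arrays gave 0 and 0 (1 at an unadjusted p below 0.05), beside 92 and 327. With 7 arrays the median log2 difference of the members was -0.02 after quantile normalisation and -0.15 after median centring. Median centring shifted the median difference of all probe sets to -0.30 with 8 arrays and -0.05 with 7.

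Flightin, encoded by fln, is a thick filament protein of the indirect flight muscle and is needed for flight. Its signal (probe set 1637335_at) was 2826 and 3204 on the sechellia no choice arrays and 2138 and 3900 on arrays 1 and 2 of sechellia choice. On the simulans arrays it was 5316 and 4963 in no choice and 5316 and 5168 in choice. All 4 sechellia arrays lay below all 4 simulans arrays, with or without array 1. Groups failed to overlap in this way for 21.9% of all tested probe sets with 8 arrays and for 34.8% with 7. The species difference was log2 -0.60 ± 0.06 (SE; limma adjusted p = 0.00014) with 7 arrays, 1.51-fold lower in sechellia, and -0.82 ± 0.20 (adjusted p = 0.043) with 8. The call with 8 arrays was lost without any 1 of the no choice or simulans arrays, at an adjusted p of 0.154 to 0.193.

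Act79B encodes an actin of tubular muscles. On the no choice arrays its signal (1624830_at) was 10099 and 10898 in sechellia and 7498 and 7527 in simulans. On the choice arrays it was 5916 and 10442 in sechellia and 7458 and 7430 in simulans. The 4 simulans values were close together and lay below every sechellia array except array 1 of choice. After quantile normalisation of all 8 arrays they lay below every sechellia array, at 6664 to 6902 against 9317 to 11144. The difference was log2 0.49 ± 0.05 (SE; limma adjusted p = 0.00014) with 7 arrays, 1.40-fold higher in sechellia, and 0.28 ± 0.23 (adjusted p = 0.47) with 8.

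Mlc1 encodes the essential light chain of muscle myosin. Its signal (1626446_a_at) was 10109 and 10787 in sechellia no choice, 5185 and 11697 in sechellia choice, 8901 and 9710 in simulans no choice and 9345 and 9740 in simulans choice. Without array 1 of sechellia choice the species did not overlap, with sechellia above simulans by a narrow gap. With 7 arrays it was higher in sechellia by log2 0.23 ± 0.06 (SE; limma adjusted p = 0.013), a 1.17-fold difference. With 8 arrays the value was -0.06 ± 0.28 (limma adjusted p = 0.90), and after median centring of the 7 arrays it was 0.12 and did not pass. After quantile normalisation of all 8 arrays the species did not overlap, at 9533 to 10264 in sechellia and 8034 to 8966 in simulans. The Mlc1 result thus depends on the arrays kept and on the scaling.

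**Figure D2:**
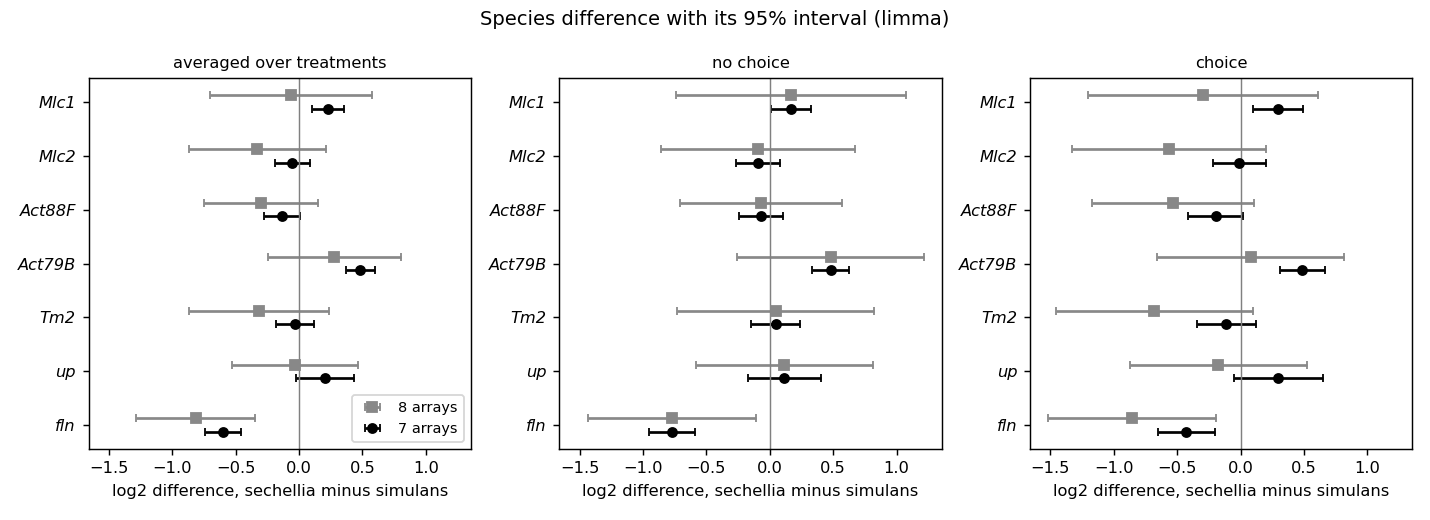
Log2 difference, sechellia minus simulans, of the 7 members with its 95% interval from limma, averaged over treatments and within each treatment, with 8 arrays (grey squares) and 7 arrays (black circles). With 7 arrays the averaged intervals of fln (-0.74 to -0.46) and Act79B (0.37 to 0.60) lie farthest from 0, and intervals with 8 arrays are wider.

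The other light chain, the flight muscle actin, tropomyosin and troponin T passed the averaged species test with neither 8 nor 7 arrays. Mlc2, the regulatory light chain gene, read 3720 and 3866 in sechellia no choice, 1850 and 3986 in sechellia choice, 3984 and 4108 in simulans no choice and 4256 and 3785 in simulans choice. The species overlapped, and the difference was log2 -0.33 (95% interval -0.87 to 0.21) with 8 arrays and -0.05 (-0.19 to 0.08) with 7. Act88F, the actin of the indirect flight muscle, read 5502 and 6198 in sechellia no choice, 4167 and 6634 in sechellia choice, 5908 and 6351 in simulans no choice and 7450 and 7759 in simulans choice. Its sechellia arrays overlapped with the simulans no choice arrays but lay below the simulans choice arrays. The averaged difference was -0.30 (95% interval -0.75 to 0.15, limma adjusted p = 0.38) with 8 arrays and -0.13 (-0.27 to 0.01, adjusted p = 0.14) with 7. It passed after median centring of the 7 arrays, at -0.25 (adjusted p = 0.021), with a replicate block in the 7 arrays, at -0.16 (adjusted p = 0.044), and without array 2 of sechellia choice, at -0.47.

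Tm2 encodes a muscle tropomyosin, and up encodes troponin T, which links tropomyosin to the other troponins. The signal of Tm2 (1641325_s_at) was 3501 and 3659 in sechellia no choice, 1558 and 3424 in sechellia choice, 3384 and 3553 in simulans no choice and 3986 and 3433 in simulans choice. That of up was 2406 and 1835 in sechellia no choice, 1287 and 2482 in sechellia choice, 1812 and 2074 in simulans no choice and 2056 and 1979 in simulans choice. The species overlapped for both genes once array 1 of sechellia choice was set aside. The species difference of Tm2 was log2 -0.32 (95% interval -0.87 to 0.23) with 8 arrays and -0.03 (-0.18 to 0.12) with 7. That of up was -0.03 (-0.53 to 0.47) with 8 arrays and 0.21 (-0.02 to 0.44) with 7, and up had the widest spread between the sechellia no choice arrays. The suffix of the Tm2 probe set marks probes that can match transcripts of more than 1 gene. Among the other muscle genes given further on, the probe sets of Mlp84B and Act87E and the bright one of tmod carry the same suffix. So do 1632854_s_at of Prm and 1627044_s_at of SERCA. Whether the actin probe sets also read related actins was not tested.

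Under each treatment alone fln and Act79B were again called with 7 arrays. In no choice, which uses none of the sechellia choice arrays, fln differed by log2 -0.77 ± 0.08 (SE; limma adjusted p = 0.00018) and Act79B by 0.48 ± 0.06 (adjusted p = 0.00072) with 7 arrays, and no other member passed. Of 7 members 1 was higher and 1 lower, beside 14.5% and 13.7% of all tested probe sets and 28.2% in either direction. The 2 sechellia arrays did not overlap with the 2 simulans arrays for 4 of 7 members, Mlc1, Mlc2, Act79B and fln, where this held for 63.4% of all. With 8 arrays, whose shared spread includes array 1, limma called 0 of 7 (1 at an unadjusted p below 0.05), beside 4.22% of all tested. A fit of only the 4 no choice arrays again called 2 members, 1 higher and 1 lower.

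In choice with 7 arrays, fln differed by -0.43 ± 0.10 (limma adjusted p = 0.016), Act79B by 0.49 ± 0.08 (adjusted p = 0.0032) and Mlc1 by 0.29 ± 0.09 (adjusted p = 0.047), so 2 of 7 were higher and 1 lower, beside 9.61% and 9.78% of all and 19.4% in either direction. With 8 arrays limma called 0 of 7 (1 at an unadjusted p below 0.05), beside 4.14% of all. Both species comparisons share 1 estimate of spread, so their calls are not independent.

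Ratios within an array cancel any scaling of that array, so array 1 of sechellia choice can be set beside the others, although its narrower range also changes ratios. The log2 signal of fln minus the mean of the other 6 members was -0.85 and -0.69 in sechellia no choice, -0.39 on array 1 and -0.49 on array 2 of sechellia choice, and 0.01 to 0.20 on the simulans arrays. The same measure for Act79B was 1.16 to 1.37 on the 4 sechellia arrays, 1.33 on array 1 of choice, and 0.62 to 0.78 on the simulans arrays. Species did not overlap for these 2 of 7 members on all 8 arrays. Measured over the mean of the members, 21.4% of all tested probe sets did not overlap. The mean set against fln holds Act79B and Mlc1, and that set against Act79B holds fln. These 2 separations are therefore not independent of each other. For Mlc1 array 1 of sechellia choice, at 1.11, lay below the highest simulans array, at 1.14, and the other sechellia arrays lay at 1.29 to 1.36.

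**Figure D3:**
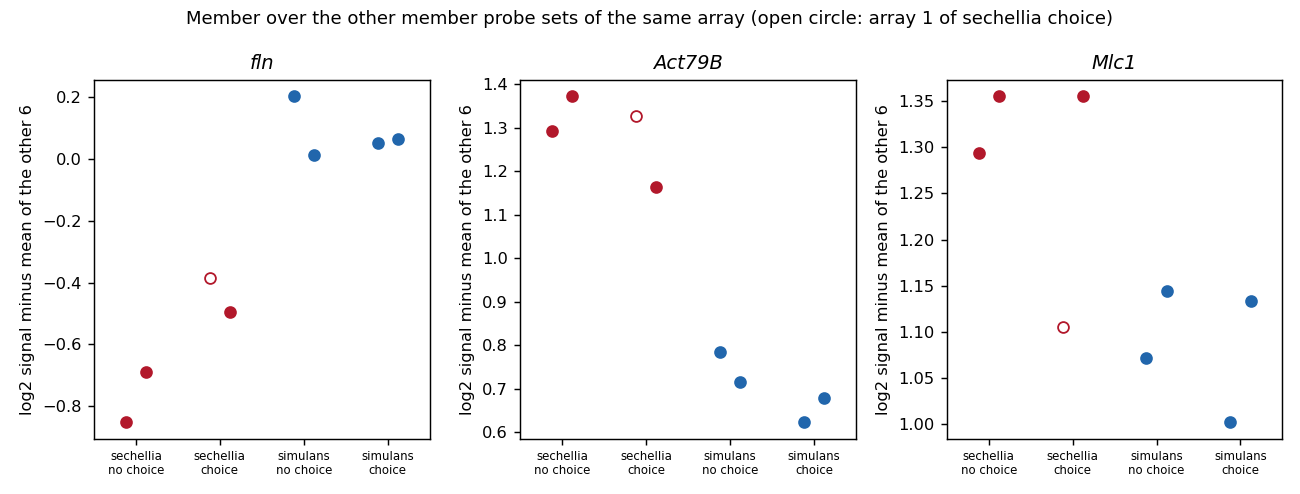
Log2 signal of fln, Act79B and Mlc1 minus the mean log2 signal of the other 6 members on the same array, 1 point per array, with array 1 of sechellia choice as an open circle (vertical axes do not start at 0). For fln and Act79B the 4 sechellia arrays are separate from the 4 simulans arrays, and for Mlc1 the open circle, at 1.11, lies among the simulans arrays.

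Both flight muscle genes and both actins also gave unlike ratios in the species. These pairs were chosen after their values were seen and are given with no test. The signal of fln over that of Act88F was 0.51 and 0.52 on the sechellia no choice arrays and 0.51 and 0.59 on the sechellia choice arrays. In simulans it was 0.90 and 0.78 in no choice and 0.71 and 0.67 in choice, above every sechellia array. Act79B over Act88F was 1.84 and 1.76 in sechellia no choice, 1.42 and 1.57 in sechellia choice and between 0.96 and 1.27 on the simulans arrays, below every sechellia array. A ratio of probe sets has no absolute meaning, and only its difference between arrays is read here.

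The choice treatment left the members with no called change in either species. In sechellia, limma called 0 of 7 members with 8 arrays (0 at an unadjusted p below 0.05) and 0 with 7 (1 unadjusted), beside 0.0533% and 2.49% of all tested probe sets. The member with an unadjusted p below 0.05 was fln, which read 3900 on array 2 of choice, above both no choice arrays at 2826 and 3204. Its choice minus no choice difference was log2 0.37 ± 0.10 (SE; limma adjusted p = 0.090) with 7 arrays, and it passed after quantile normalisation of these, at 0.39 (adjusted p = 0.044). Without array 2 of choice, where array 1 stands for the group, it passed in the opposite direction, at -0.49 (adjusted p = 0.0023). On array 1 of choice fln was lower than in no choice, at 2138, and with 8 arrays the difference was -0.06 ± 0.29 (adjusted p = 0.90).

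With 7 arrays the choice differences of the members in sechellia ranged from -0.06 for Tm2 to 0.37 for fln, with a median of 0.16, beside 0.04 over all tested probe sets. With 8 arrays they ranged from -0.63 to -0.06, all negative, with a median of -0.42 beside 0.19. All 7 members read lower on array 1 than on any other array. Array 2 of choice lay outside the range of both no choice arrays for 6 of 7 members, as it did for 75% of all probe sets. Intervals with 7 arrays reached from -0.19 to 0.17 for Act79B and from -0.11 to 0.59 for up.

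In simulans, whose 4 arrays were alike, limma called 0 of 7 members with 8 arrays (0 at an unadjusted p below 0.05). Over all 13138 tested probe sets 0.00761% were called and 243 had such an unadjusted p. Act88F had the largest difference, and both of its choice arrays lay above both no choice arrays. Its difference was log2 0.31 ± 0.08 (SE; limma adjusted p = 0.13) with 7 arrays, 95% interval 0.13 to 0.49, so it did not pass after adjustment. For 47.2% of all tested probe sets the 2 choice arrays did not overlap with the 2 no choice arrays of simulans. The 6 other members gave differences between -0.01 and 0.09.

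**Figure D4:**
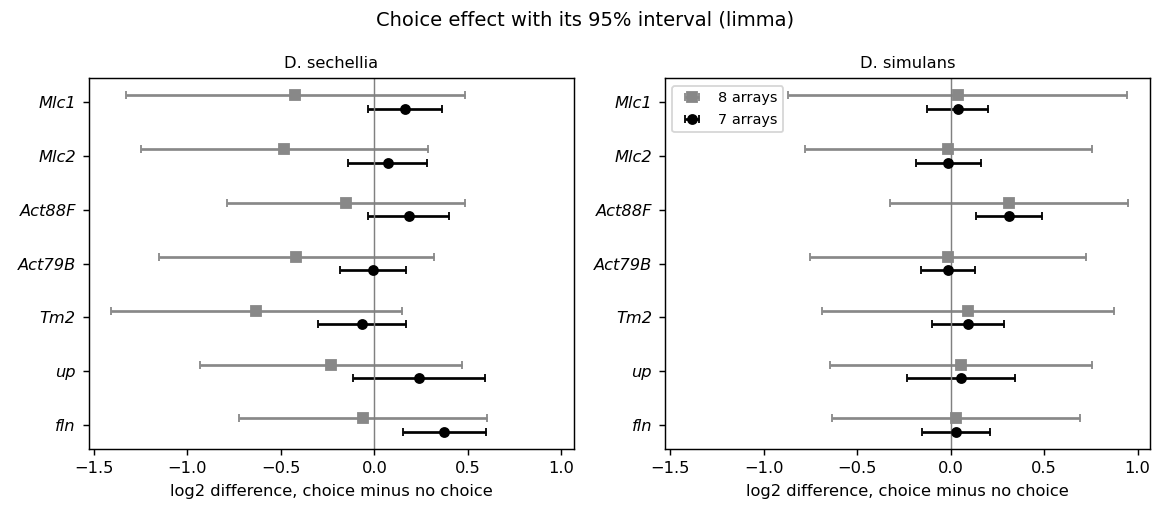
Log2 difference, choice minus no choice, of the 7 members with its 95% interval from limma in each species, with 8 arrays (grey squares) and 7 arrays (black circles). With 7 arrays the intervals of fln in sechellia (0.15 to 0.60) and Act88F in simulans (0.13 to 0.49) exclude 0 before adjustment over all probe sets, and neither passed after it.

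The choice effect was not shown to differ between the species for any member. For this interaction limma called 0 of 7 with 8 arrays (0 at an unadjusted p below 0.05) and 0 with 7 (1 unadjusted), beside 0.0152% and 2.79% of all. The largest value with 7 arrays was that of fln, 0.34 ± 0.12 (SE; adjusted p = 0.21).

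Other muscle genes, of the sarcomere and of its calcium supply, energy and assembly, were read through 36 tested probe sets of 23 genes among 28 listed, and with 7 arrays most of those called were higher in sechellia. With 7 arrays 20 of 36 probe sets were higher and 3 lower (limma, averaged over treatments), beside 16.9% and 15.6% of all tested probe sets, with a median log2 difference of 0.23 beside 0.07. With 8 arrays 3 were higher and 2 lower, beside 4.41% and 5.46% of all, with a median of 0.04 beside 0.14. Quantile normalisation of 8 arrays called 12 higher and 2 lower, beside 576 and 577 of all 13138 tested. Median centring of 8 arrays called 0 and 1, beside 92 and 327. The median log2 difference with 7 arrays was 0.21 after quantile normalisation and 0.11 after median centring, beside 0.03 and -0.05 over all.

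Among thick filament genes, 3 of 4 probe sets were higher with 7 arrays and none with 8 (0 at an unadjusted p below 0.05). Prm, which encodes paramyosin of the thick filament core, differed by log2 0.62 ± 0.06 and 0.65 ± 0.05 in its 2 probe sets (SE; limma adjusted p = 0.00012 and 3.5e-05) with 7 arrays, and by 0.33 ± 0.24 and 0.44 ± 0.19 (adjusted p = 0.44 and 0.21) with 8. The first of these read 4970 and 4607 in sechellia no choice, 1983 and 4493 in sechellia choice, and 2877 to 3305 on the simulans arrays. Mf, which encodes the thick filament protein myofilin, differed by 0.68 ± 0.05 (adjusted p = 2.1e-05) in one probe set and by 0.14 ± 0.06 (adjusted p = 0.10) in the other with 7 arrays. With 8 arrays these were 0.46 ± 0.24 and -0.16 ± 0.30, and neither passed.

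Z-disc and elastic filament genes had 8 of 14 probe sets higher and 1 lower with 7 arrays, and 1 higher with 8. The elastic filament gene bt, which encodes projectin, read 5152 and 5448 in sechellia no choice, 2396 and 4125 in sechellia choice, 2188 and 2037 in simulans no choice and 2536 and 1900 in simulans choice. It was higher in sechellia by 1.12 ± 0.10 (SE; limma adjusted p = 5.1e-05) with 7 arrays and by 0.92 ± 0.20 (adjusted p = 0.024) with 8. Actn, the alpha-actinin of the Z-disc, differed by 0.82 ± 0.07 (adjusted p = 3.9e-05) with 7 arrays and by 0.18 ± 0.47 (adjusted p = 0.83) with 8. Array 1 of sechellia choice read 327 where the other sechellia arrays read 1810 to 1910. The 3 probe sets of Zasp66, a Z-disc protein gene, differed by 0.64 to 0.97 with 7 arrays. With 8 arrays they gave 0.27 to 0.92, with none called (2 at an unadjusted p below 0.05, limma). The largest value in both fits came from a dim probe set, at 90.2 to 227, while the 2 others read 2916 to 8187. One of 3 probe sets of Mlp60A, a muscle LIM protein gene, was lower with 7 arrays, at -0.54 ± 0.11 (adjusted p = 0.0066; with 8, -0.68 ± 0.20, adjusted p = 0.080), and its brightest gave 0.05 ± 0.05 (adjusted p = 0.54). Mlp84B, also a muscle LIM protein gene, was higher by 0.40 ± 0.09 (adjusted p = 0.0096) with 7 arrays and gave 0.31 ± 0.15 with 8 (adjusted p = 0.24). For sls, which encodes the titin-like Sallimus, probe sets 1628671_a_at and 1634102_at differed by 0.37 ± 0.07 and 0.33 ± 0.09 with 7 arrays, averaged over treatments. With 8 arrays they gave 0.34 ± 0.11 and -0.18 ± 0.39, neither called. The difference lay mostly in no choice, where mean log2 signals in sechellia were 10.14 and 9.63, against 9.49 and 8.90 in simulans. Array 2 of sechellia choice read 9.79 and 9.31, against means of 9.71 and 9.38 in simulans choice. The Zasp67 value was the lowest of the role with 7 arrays, at -0.69 ± 0.31 (adjusted p = 0.13), and was -0.19 ± 0.51 with 8.

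Thin filament genes had 3 of 7 probe sets higher and 1 lower with 7 arrays, and 1 higher and 1 lower with 8. TpnC41C, a troponin C gene, read 3692 and 3766 in sechellia no choice, 2965 and 4050 in sechellia choice, 2604 and 2564 in simulans no choice and 1975 and 2095 in simulans choice. It was higher in sechellia on all 4 arrays, by log2 0.76 ± 0.05 (SE; limma adjusted p = 1.4e-05) with 7 arrays and 0.65 ± 0.14 (adjusted p = 0.026) with 8. Act87E, another muscle actin gene, was higher by 0.18 ± 0.05 (adjusted p = 0.018) with 7 arrays and gave -0.10 ± 0.25 (adjusted p = 0.83) with 8. The 2 probe sets of tmod, which encodes the thin filament capping protein tropomodulin, went opposite ways with 7 arrays: the dim one was lower by -1.58 ± 0.18 (adjusted p = 0.00020) and the bright one higher by 0.24 ± 0.05 (adjusted p = 0.0061). With 8 arrays these were -1.47 ± 0.28 (adjusted p = 0.014) and 0.02 ± 0.21 (adjusted p = 0.96). The bright probe set read 3008 to 5997 on the sechellia arrays and the dim one 59.4 to 125.

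In the calcium group 5 of 6 probe sets were higher with 7 arrays and 1 with 8. The 3 probe sets of SERCA, the calcium pump of the sarcoplasmic reticulum, differed by log2 0.21 to 0.45 with 7 arrays, all called, and by -0.05 to 0.44 with 8, 1 of them called. RyR, the calcium release channel gene, differed by 0.62 ± 0.14 (SE; limma adjusted p = 0.0098) with 7 arrays and 0.66 ± 0.19 (adjusted p = 0.069) with 8. Scp1, a sarcoplasmic calcium-binding protein gene, differed by 0.26 ± 0.06 (adjusted p = 0.013) with 7 arrays, while the value with 8 was 0.0039 ± 0.33 (adjusted p = 0.99). Argk1, which encodes the arginine kinase that buffers ATP in muscle, differed by 0.41 ± 0.06 (adjusted p = 0.00096) with 7 arrays and 0.21 ± 0.23 (adjusted p = 0.59) with 8. One of 3 probe sets of Strn-Mlck, a myosin light chain kinase gene, was lower, at -0.51 ± 0.10 (adjusted p = 0.0040) with 7 arrays and -0.64 ± 0.16 (adjusted p = 0.046) with 8. The non-muscle myosin light chain gene Mlc-c gave 0.04 ± 0.05 (adjusted p = 0.56) with 7 arrays and -0.28 ± 0.27 (adjusted p = 0.55) with 8. Without any 1 of the 6 no choice or simulans arrays, each of the 5 calls with 8 arrays in this list was lost.

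**Figure D5:**
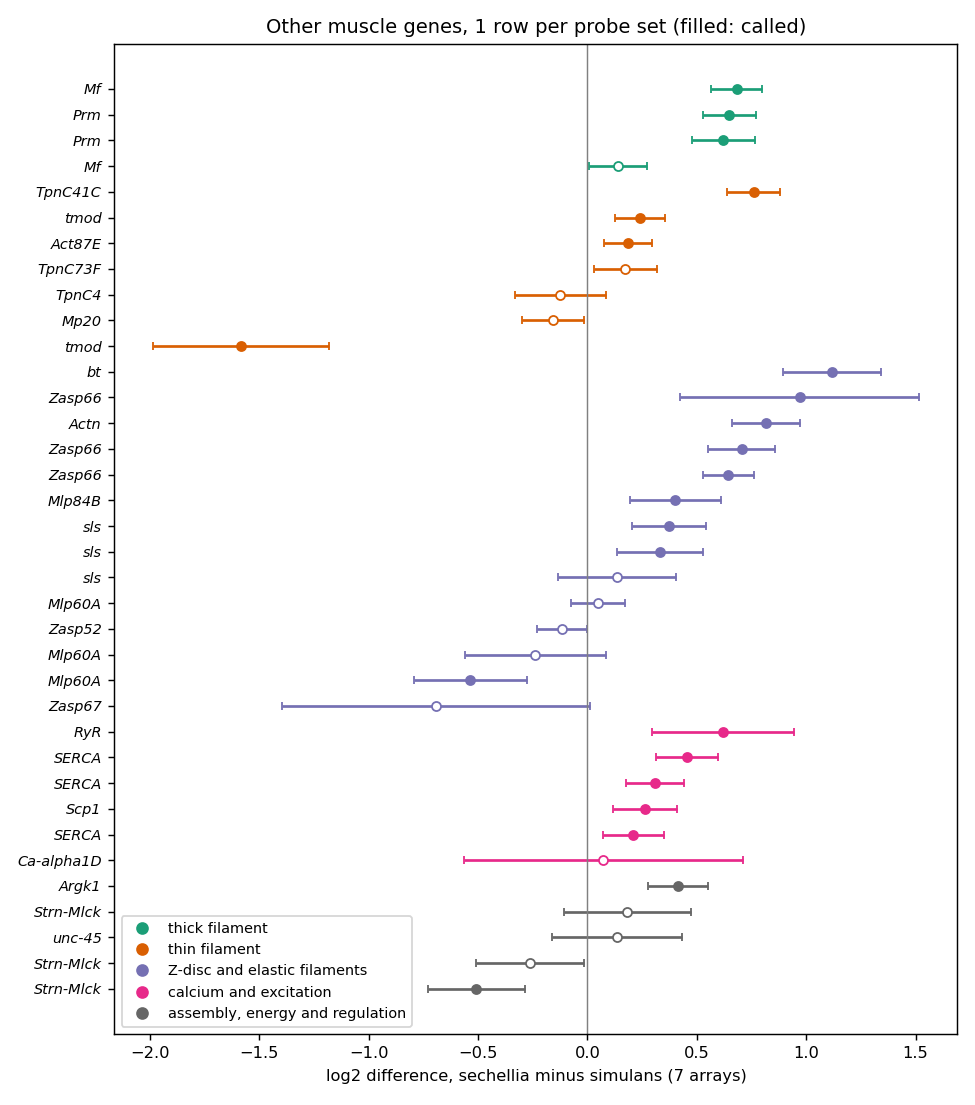
Log2 difference, sechellia minus simulans, with its 95% interval from limma (7 arrays, averaged over treatments) of 36 tested probe sets of 23 other muscle genes, 1 row per probe set, coloured by role and filled where the adjusted p was below 0.05. Most thick filament, Z-disc and calcium rows lie above 0, with bt at 1.12, and the dim tmod probe set lies lowest, at -1.58.

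These other muscle genes also differed between the species within each treatment. With 7 arrays 17 of 36 were higher and 4 lower in no choice, beside 14.5% and 13.7% of all, and 14 were higher and 2 lower in choice, beside 9.61% and 9.78%. With 8 arrays 1 was higher in no choice, beside 4.22% called in either direction, and 2 were lower in choice, beside 4.14%. For the choice effect itself the median log2 difference with 7 arrays was 0.005 in sechellia and 0.01 in simulans, beside 0.04 and 0.004 over all. With 8 arrays limma called 0 of 36 in sechellia and 0 of 36 in simulans, beside 0.0533% and 0.00761% of all tested probe sets. At an unadjusted p below 0.05 these counts were 6 and 0, beside 1865 and 243 of all 13138.

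Markers of other tissues also differed between the species. The signal summed over 4 midgut protease probe sets was 1019 to 3598 on the sechellia arrays and 33362 to 39564 on the simulans arrays, and all 4 were lower in sechellia with 7 and with 8 arrays. Over 6 ovary and germline probe sets the sum was 31347 to 61117 in sechellia and 66561 to 78621 in simulans, with 4 lower with 7 arrays and 2 with 8. Fat body markers summed to 27163 to 58480 and 45045 to 57217, with 1 of 3 tested, Lsp2, higher in sechellia. Neuronal markers summed to 338 to 842 and 344 to 554 with none of 3 tested at an unadjusted p below 0.05 (limma, 8 or 7 arrays), and eye markers to 616 to 1252 and 166 to 433 with 2 of 2 tested higher. Male accessory gland markers summed to 126 to 1373, the highest on array 1 of sechellia choice, and 149 to 240, with none of 2 tested at an unadjusted p below 0.05. The highest neuronal and eye sums, 842 and 1252, also came from array 1, on which dim probe sets read high. On the other sechellia arrays the accessory gland sum was 126 to 324, the neuronal 338 to 555.5 and the eye 616 to 683. The lowest ovary and fat body sums, 31347 and 27163, came from array 1 too, on which bright probe sets read low. Without it the sechellia sums were 41550 to 61117 for ovary and 48913 to 58480 for fat body. The part of these tissues in the muscle differences was not tested.

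By pattern over the 7 arrays, the probe sets most like the mean of the 7 members among 10426 candidates were those of Cyp4ad1, CG9308, pncr004:X, CG2003 and drd, with Pearson r of 0.955 to 0.991. The mean profile itself moved by only -0.07 to 0.09 log2 units around its centre. It averages members that were higher and lower in sechellia with others that showed no called difference. This likeness is a description over arrays that share groups.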

How the data were processed

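Per the submitters' processing notes, the deposited values are MAS5 probe-set signal, an intensity on a linear scale, with no version or settings given. Per the labels' protocols, total RNA was extracted with TRIzol and purified on columns, and 7 µg of it went into each labelled cRNA. The deposited intensities were already scaled: with 2% trimmed at each end the mean was 500.0 on all 8 arrays, within the 5% set as a limit, so log2 of the deposited signal was used. The number of arrays, 2 per group, limits the precision.

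Of 18952 probe sets, 183 controls and the dimmest 30% of the rest (mean signal below 49.9) were left out, and 13138 were tested. A mean per group was estimated by lmFit and eBayes with an intensity trend (limma 3.58.1, R 4.3.3), with Benjamini-Hochberg adjustment over all 13138, and 4 (8 arrays) or 3 (7 arrays) residual degrees of freedom. The averaged species test with 8 arrays was tried on simulated data, with spread taken from the no choice and simulans arrays. That trial held no array of narrower range and did not cover the fit of 7 arrays or the choice tests. Every probe set of a member is reported; other muscle genes are named where called or at the extremes of a role. Members and lists were chosen with earlier results of these data known. Alternatives were arrays left out, dim filters, quantile normalisation, median centring, a started log (signal + 16), array weights, no trend, a replicate block and fits of 4 arrays. Symbols are those of the probe annotation (D. melanogaster); no position is given.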

Additional observations from a re-analysis of the deposited data

Results flagged for a closer look

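For sls, which encodes the elastic protein Sallimus (kettin) between Z-disc and thick filament, 2 of 3 probe sets passed the test for a difference between the species in the effect of choice with 7 arrays and none with 8. With 7 arrays sechellia choice is array 2 alone, so its spread is taken from the other groups and not measured. In the first, 1634102_at, subtracting the effect in simulans from that in sechellia gave log2 -0.80 ± 0.17 (SE; limma adjusted p = 0.0499). Signals were 760 and 831 in sechellia no choice, 155 and 636 on arrays 1 and 2 of sechellia choice, 476 and 481 in simulans no choice and 634 and 703 in simulans choice. In the second, 1635445_at, the difference was -1.34 ± 0.24 (adjusted p = 0.028), and in the third, 1628671_a_at, -0.57 ± 0.15 (adjusted p = 0.092). With a replicate block in the 7 arrays the first gave -0.85 and did not pass (adjusted p = 0.064). The 7-array fit called 2.79% of all probe sets. With 8 arrays the first 2 gave -1.82 and -1.93, and neither passed (adjusted p = 0.64 for both). No member of the sarcomere group met this criterion.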

How the results depend on the processing

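Calls of members depended on which sechellia choice arrays entered. Leaving out 1 array at a time, the number of members called was 0 to 6 for the species averaged over treatments, 0 to 2 in no choice, 0 to 7 in choice, 0 to 7 for choice in sechellia and 0 to 7 for the interaction; the highest came without array 2 of sechellia choice, where array 1 stands for its group, and in no choice without either sechellia choice array. For choice in simulans it was 0 under every alternative. Against 1, 0 and 0 members called between species (averaged, in no choice, in choice), quantile normalisation of 8 arrays gave 3, 2 and 2. It called 1153, 525 and 593 of all 13138 probe sets. Median centring of 8 arrays gave 0, 0 and 0, beside 419, 117 and 103 of all. Quantile normalisation of 7 arrays called 1 member, fln at 0.39, for choice in sechellia. Array weights gave 2 in no choice, as did the 4 arrays alone, and without an intensity trend the averaged count was 0. Deviations of same-numbered arrays correlated at -0.12 to 0.05 between groups, which cannot show whether the samples were paired. With a replicate block the averaged count was 0 (limma, fln adjusted p = 0.053). The block with 7 arrays was an alternative chosen after seeing the data.

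Directions turned as follows, and the cause was not tested. Leaving out 1 array at a time, the log2 species difference ranged from -0.36 to 0.23 for Mlc1 (in choice, -0.88 to 0.29), -0.33 to 0.49 for Act79B in choice, -0.37 to 0.18 for Act87E, -0.20 to 0.24 for the bright tmod probe set, -0.69 to 0.33 for sls 1634102_at, -0.46 to 0.82 for Actn, -0.30 to 0.21 and -0.19 to 0.31 for SERCA 1627044_s_at and 1636669_at, and -0.26 to 0.26 for Scp1, the 2 ends being without array 2 and without array 1 of sechellia choice. Quantile normalisation of 8 arrays turned Mlc1 to 0.19 and SERCA 1627044_s_at to 0.18. Of 7 arrays it gave 0.22 for Mlc1 (0.22 in choice), 0.20 for Act87E, 0.33 for sls and 0.18 for SERCA, and the block with 7 arrays gave 0.21, 0.18, 0.31 and 0.18. Over all probe sets the averaged species comparison called 1297 with 8 arrays, 4276 with 7, 8160 without array 2 of sechellia choice, 472 to 503 without another array, 419 after median centring and 841 without a trend. The no choice comparison ranged from 107 to 3803 calls around 554, the choice comparison from 19 to 8980 around 544, choice in sechellia from 0 to 8671 around 7, choice in simulans from 0 to 157 around 1 and the interaction from 0 to 7300 around 2.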
